A study of Mus musculus with 2 samples.

Results

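The CCR4-NOT complex is the main machine that shortens the poly(A) tails of messenger RNAs. The 10 subunit genes described here were looked up in a list of E2F1 peaks from mouse hepatocytes, and 8 of them had at least 1 listed peak under their own symbol. They were chosen as a gene family, with earlier results of these data known, and looked up by symbol. For that reason neither the presence of a peak nor its strength is tested, and the list's values are given as a description. The 8 genes carried 10 of the 5667 listed peaks, which name 5594 genes in all. Cnot11 has no row under its own symbol but is listed under its older symbol D1Bwg0212e with 2 peaks. With it the count comes to 9 of the 10 genes and 12 peaks. With older symbols matched in the same way, 24.7% of all protein-coding genes were named for a listed peak. Cnot8 was the 1 gene of the 10 with no listed peak under any symbol in the reference table. A further subunit gene, Cnot9, is not among the 10 and had no listed peak either.

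The peaks compare 1 E2F1 ChIP record with 1 input record, both from primary cultures of hepatocytes of strain C57Bl6J. All cells, those of the input included, had received the adenovirus Ad-E2F1 and were harvested 36 h later, so E2F1 from the vector and the cells' own E2F1 cannot be told apart in the list. The antibody was E2F1 c20, and the input is chromatin with no antibody. Replicates are mentioned in the series text, but the list holds 1 value per peak, so no value below has a replicate error. The depth of the libraries is unknown. No expression was measured, so the cell type could not be checked against hepatocyte markers, and no cells without the vector were analysed here.

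E2F1 belongs to the E2F family of transcription factors, best known for switching on genes that cells need to enter S phase. In mammals CNOT1 is the large scaffold of the CCR4-NOT complex, on which CNOT2 and CNOT3 form the NOT module and CNOT10 and CNOT11 a further module. The poly(A) tail is removed by nucleases of separate families, CNOT6 or CNOT6L of the CCR4 type and CNOT7 or CNOT8 of the CAF1 type, with one of each pair in a complex. CNOT4 is a ubiquitin ligase named for its yeast counterpart Not4 and is loosely bound in mammals.

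The promoter sequences of 5 members are shown as examples of different peak positions and strengths. Cnot6 has the strongest peak of the complex, and Cnot3 and Cnot4 have promoter peaks of moderate strength. Cnot6l has its strong peak just inside the gene, and Cnot11 has peaks only at and past its 3′ end. The promoter sequences of Cnot2, Cnot8 and Cnot10 are not shown, and no E2F motif described below was found in them. Each run is the 250 bases before a RefSeq transcription start site (TSS) of assembly GRCm38.p6, written along the gene's strand. Where a gene has several starts the most upstream one is shown. Capitals mark letters that match an E2F motif described below.
Cnot6 (chr11:49712723-49712972, minus strand): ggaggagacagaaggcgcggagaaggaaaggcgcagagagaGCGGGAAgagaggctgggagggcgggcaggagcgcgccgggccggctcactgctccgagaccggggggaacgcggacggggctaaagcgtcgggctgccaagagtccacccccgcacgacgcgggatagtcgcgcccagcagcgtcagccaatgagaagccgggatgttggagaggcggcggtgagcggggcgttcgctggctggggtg
Cnot6l (chr5:96161991-96162240, minus strand): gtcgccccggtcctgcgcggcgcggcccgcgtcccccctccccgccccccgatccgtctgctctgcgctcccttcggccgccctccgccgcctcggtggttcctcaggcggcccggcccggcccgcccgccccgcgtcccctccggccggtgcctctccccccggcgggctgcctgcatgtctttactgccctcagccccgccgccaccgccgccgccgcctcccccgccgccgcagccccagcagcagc
Cnot3 (chr7:3645019-3645268, plus strand): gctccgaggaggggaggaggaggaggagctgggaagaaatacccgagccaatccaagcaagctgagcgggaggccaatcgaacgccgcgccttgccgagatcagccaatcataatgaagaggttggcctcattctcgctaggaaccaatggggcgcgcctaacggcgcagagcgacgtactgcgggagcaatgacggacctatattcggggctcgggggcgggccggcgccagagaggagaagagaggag
Cnot4 (chr6:35133738-35133987, minus strand): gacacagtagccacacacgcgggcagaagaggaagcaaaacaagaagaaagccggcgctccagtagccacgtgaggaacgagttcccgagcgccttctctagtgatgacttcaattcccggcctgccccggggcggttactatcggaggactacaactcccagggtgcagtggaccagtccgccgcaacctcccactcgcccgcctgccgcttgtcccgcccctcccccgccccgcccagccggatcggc
Cnot11 (chr1:39535451-39535700, plus strand): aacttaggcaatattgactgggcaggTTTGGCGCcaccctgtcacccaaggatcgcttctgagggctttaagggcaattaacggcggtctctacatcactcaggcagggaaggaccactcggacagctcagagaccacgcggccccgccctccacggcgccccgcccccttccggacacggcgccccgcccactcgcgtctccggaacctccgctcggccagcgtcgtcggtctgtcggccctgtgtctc

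Of the 10 genes, 6 had a promoter peak, that is, a peak whose summit lies 1000 bp or less from a TSS. They were Cnot1, Cnot2, Cnot3, Cnot4, Cnot6 and Cnot10. Among all protein-coding genes in the RefSeq annotation, 13.1% had a promoter peak and 24.7% were named for any listed peak. These shares stand beside the members' counts only for orientation. The members were chosen by gene family with earlier results of these data known, so their presence in the same list was not tested. The fold given for each peak is the authors' ratio of ChIP tags to the background expected from the input. Over the 6 promoter peaks it had a median of 6.19, with a range of 4.89 to 21.52, beside a median of 6.525 over the 2866 protein-coding genes with a promoter peak. Cnot6 and Cnot3 lay above that median and the other 4 below it.

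**Figure D1:**
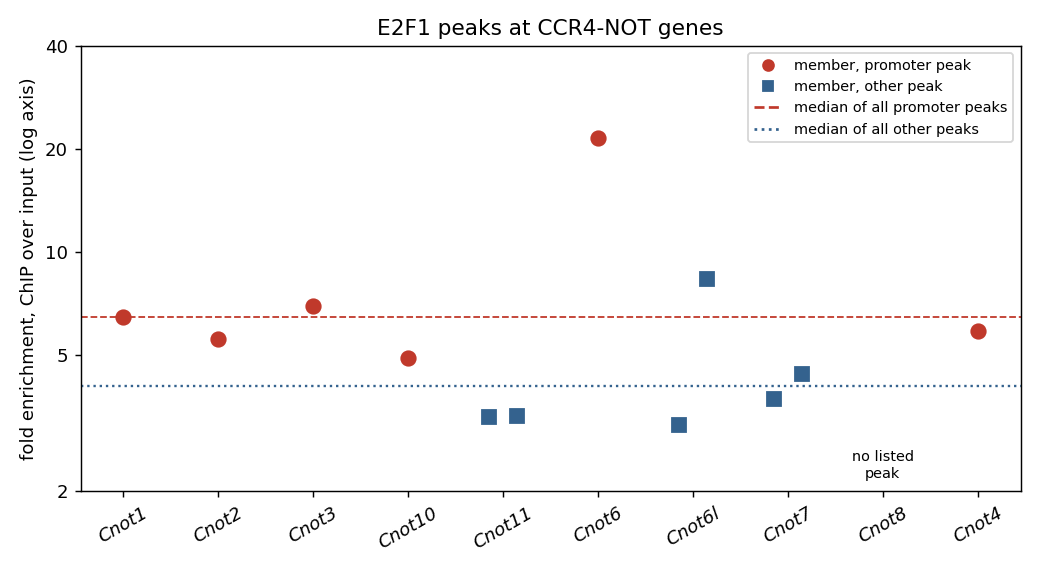
Fold enrichment of each listed peak (log axis) for the 10 genes, with circles for promoter peaks, squares for other peaks, and lines at the medians of all promoter peaks (6.48, dashed) and all other peaks (4.07, dotted). Cnot6 stands apart at 21.52, the 5 other promoter peaks lie between 4.89 and 6.95, and Cnot8 has no point.

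In the scaffold and NOT module, each of the 3 genes had a promoter peak. At Cnot1, which codes for the scaffold, the peak lay on chromosome 8 from 98331358 to 98331658 (mm9) and this window, centred on the summit, held the TSS. It had a fold of 6.48 with 305 tags and a false discovery rate of 0.27%. Its called region was the longest of the 6 at 3047 bp, with a pileup height of 83, or 27.2 per 100 tags, the lowest such ratio of the 6.

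Cnot2 had its peak on chromosome 10 from 116019326 to 116019626, with a fold of 5.58, 155 tags and a false discovery rate of 1.97%. Its summit lay 908 bp upstream of the TSS, which placed it just inside the promoter limit. The called region ended 266 bp short of the TSS, the only one of the 4 promoter regions with a placed TSS that did not reach it. Cnot3 had its peak on chromosome 7 from 3596299 to 3596599, with the summit 504 bp upstream, a fold of 6.95, 189 tags and a false discovery rate of 0.15%. Its region ran 651 bp past the TSS into the gene.

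The module of CNOT10 and CNOT11 had a promoter peak at Cnot10 only. That peak lay on chromosome 9 from 114549173 to 114549473 and its window held the TSS. It had the lowest fold (4.89) and score (66.93) and the highest false discovery rate (4.79%) of the 6 promoter peaks. Its 184 tags were more than the 155 of Cnot2, and its height of 80 was above those of Cnot2, Cnot3 and Cnot4 (72, 73 and 73). The score is −log10 of the p-value from the caller, multiplied by 10, and no listed peak has one under 50. At Cnot11, listed as D1Bwg0212e, a peak of 124 tags and a fold of 3.29 was assigned to the 3′ untranslated region, on chromosome 1 from 39603800 to 39604100. The other held 199 tags at a fold of 3.33, on chromosome 1 from 39615657 to 39615957. By the listed distance its window edge, not its summit, lay 11930 bp past the gene. It is also named for Rnf149, in whose body it lies. Both Cnot11 peaks were below the median fold of 4.07 over all peaks outside promoters.

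Of the 4 genes for nuclease subunits, 1 had a promoter peak, and it was the strongest peak of the complex. Cnot6, which codes for a CCR4-type nuclease, had its peak on chromosome 11 from 49526370 to 49526670, with a fold of 21.52, 409 tags, a pileup height of 297 and a score of 1425.15. The caller's false discovery rate there was 0%, a value shared by 256 peaks (4.52%) of the list and by no other peak of the complex. Its fold was 3.10 times that of Cnot3, the next promoter peak of the complex. In the whole list it ranked 85 of 5667 by fold, 63 by score and 37 by height, and among the 2612 promoter peaks it ranked 75 by fold and 29 by height.

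The Cnot6 peak was also compact. Its region of 1471 bp was the shortest of the 6 and held 278 tags per kb, against 90.2 to 106.3 at the other 5. That length lay between the lower quartile (1386.75 bp) and the median (1897.5 bp) of all promoter peaks. The height at Cnot6 was 72.6 per 100 tags, a value reached by 4.25% of all promoter peaks, whose median was 41.4. The summit lay 294 bp upstream of the TSS and the region reached 334 bp into the gene.

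Cnot6l, the paralog of Cnot6, had no promoter peak by the 1000 bp limit but a peak just outside it. That summit lay 1118 bp inside the gene, on chromosome 5 from 96591922 to 96592222, with a fold of 8.35, 253 tags and a false discovery rate of 0.43%. This was the second highest fold of the complex. Its region of 2498 bp covered the TSS and ran 563 bp upstream of it, so the class depends on where the summit falls and not on whether the region touches the start. A further Cnot6l peak lay 45593 bp into the gene with a fold of 3.13 and 133 tags, the lowest fold of the complex. Whether reads were shared between these paralogs was not tested.

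**Figure D2:**
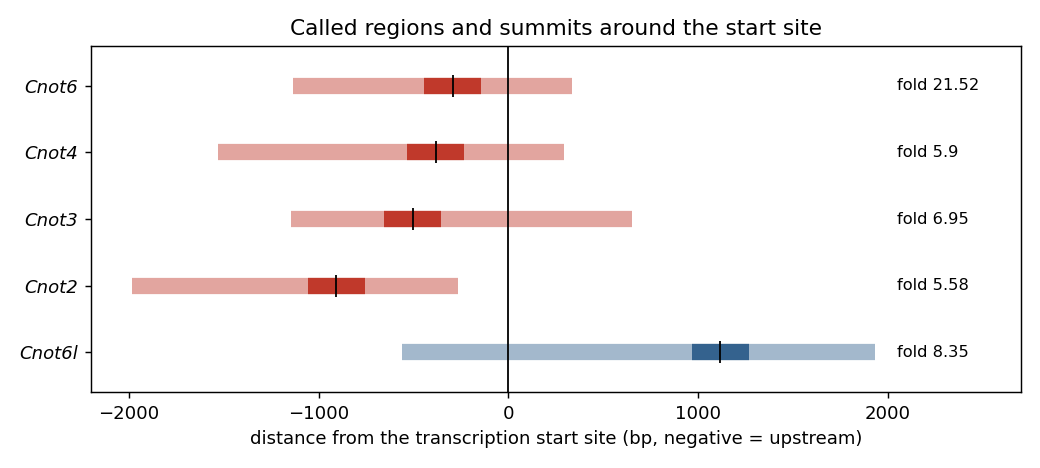
Called regions (pale bars), summit windows (dark bars) and summits (ticks) on a scale of bp from the TSS for the 5 members with a summit within 2000 bp of a TSS whose position the distance gives, with promoter peaks in red and the Cnot6l peak in blue. The summits of Cnot6, Cnot4, Cnot3 and Cnot2 lie 294 to 908 bp upstream, that of Cnot6l lies 1118 bp downstream, and the Cnot2 region stops 266 bp short of the TSS.

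The CAF1-type nuclease genes had no peak near a start. Cnot7 was named for a peak 18194 bp inside the gene, on chromosome 8 from 41582857 to 41583157, with a fold of 3.72 and 257 tags in a broad region of 3445 bp. Another lay 19934 bp upstream of its TSS, on chromosome 8 from 41620986 to 41621286, with a fold of 4.41 and 146 tags. Both are also named for Vps37a, whose TSS by the listed distances is 4065 bp from that of Cnot7, so neither peak can be given to one gene alone. The list marks Cnot7 as the closest gene for the upstream peak, which lies within Vps37a, but not for the other. Cnot8 had no listed peak. The caller's serial numbers skip 13240 values, so the list is a selection, and a gene without a listed peak is not shown to be unbound.

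Cnot4, the ubiquitin ligase gene, had its promoter peak on chromosome 6 from 35083970 to 35084270. It had a fold of 5.90, 194 tags and a false discovery rate of 0.53%, with the summit 382 bp upstream and a region reaching 295 bp into the gene. In tags and height it was close to Cnot3, with 194 and 189 tags and a height of 73 at both.

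The other 5 promoter peaks of members stood at different places in the whole list depending on the measure. By fold they ranked 1165 (Cnot3), 1305 (Cnot1), 1509 (Cnot4), 1650 (Cnot2) and 1948 (Cnot10) of 2612 promoter peaks. By pileup height they stood closer together, at 72 to 83, which is above the median of 60 over all promoter peaks and below its upper quartile of 91. By tags Cnot1 ranked 322, with 305 tags beside an upper quartile of 245.25, and by score Cnot10 ranked 2272, with 66.93 beside a lower quartile of 86.54. Each of the 6 promoter peaks named 1 gene, as did 75.3% of all promoter peaks. The 6 peaks of members outside promoters had a median fold of 3.525 and a median height of 41, beside 4.07 and 37 over all 3055 such peaks. The Cnot6l peak near its start, with a height of 104, was the only one of these 6 above a height of 48.

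**Figure D3:**
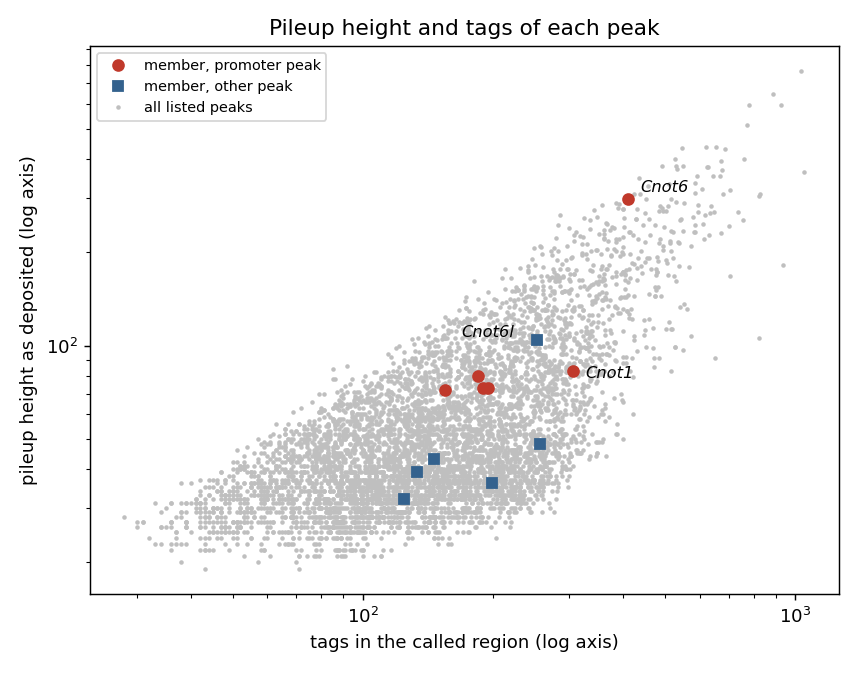
Pileup height as deposited against tags in the called region (both log axes) for all 5667 listed peaks in grey, with promoter peaks of members in red and their other peaks in blue. Cnot6, at 409 tags and a height of 297, lies along the upper edge of the cloud. Cnot1 has 305 tags at a height of 83. Apart from the Cnot6l peak near its start, the other 5 member peaks in blue have heights of 32 to 48.

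The promoter sequences were searched for letters known as E2F binding motifs, TTTCCCGC, TTTCGCGC, TTTGCCGC and TTTGGCGC, on both strands, and for the same motifs without their first T. The table of RefSeq promoters, from 250 bases before to 50 after a start, held 14 windows for 8 members. Cnot1 and Cnot7 were not matched. One of the 8-letter motifs, TTTGGCGC, occurred in the Cnot11 window, at bases -224 to -217 from the start, and in no other member window. That is 1 of 14 windows (7.14%), beside 2.26% of all 32851 windows and 8.19% of windows of protein-coding genes with a promoter peak. The 7-letter form added Cnot6, whose window holds GCGGGAA, the reverse complement of TTCCCGC, at bases -209 to -203. With it 2 of 14 windows (14.3%) matched, beside 9.57% of all windows and 26.7% of those of protein-coding genes with a promoter peak.

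Within the complex, Cnot11 has an 8-letter motif and no promoter peak, and Cnot2, Cnot3, Cnot4 and Cnot10 have promoter peaks and no match in these windows. The summits of Cnot2, Cnot3, Cnot4 and Cnot6 lie more than 250 bp upstream of the TSS used by the authors, who worked on mm9, so the base under those summits is not in the sequence shown if the starts are the same. Whether the starts of both annotations coincide was not tested.

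The GC box letters GGGCGG, searched on both strands, occurred in 11 of the 14 windows (78.6%) and in at least 1 window of all 8 matched genes, Cnot8 included. The shares were 35.7% of all windows, 46.2% of those of protein-coding genes and 68.4% of those of protein-coding genes with a promoter peak. GC content had a median of 64.3% in member windows, beside 52.7% in all windows and 60.7% in protein-coding genes with a promoter peak. The median observed-to-expected CpG ratio was 0.906, beside 0.384 and 0.822. The member medians lie near those of protein-coding genes with a promoter peak, but the member windows include those of Cnot6l, Cnot8 and Cnot11, which have none. In windows of members with a promoter peak the CpG ratio ran from 0.34 (Cnot2) to 1.02 (Cnot6). Within the complex the window of Cnot6 had 33 CpG and the most upstream window of Cnot6l 49, while Cnot10 had 14 and the most upstream Cnot2 window 11. The other Cnot2 window had 3 CpG at a GC content of 35% (ratio 0.34), and the most upstream Cnot8 window 3 CpG at 53.3% (ratio 0.141), and neither holds GGGCGG. Of the 14 windows 7 belong to Cnot6l and Cnot8, where several overlap, so the 14 are not separate promoters.

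Genes that act with CCR4-NOT in messenger RNA decay were described by 5 further lists. Other deadenylases had promoter peaks at 2 of 8 genes, which were Toe1, a nuclear deadenylase gene that shares its peak with Mutyh (fold 17.74, 301 tags), and Pan2, the catalytic subunit gene of the PAN2-PAN3 complex (fold 7.48, 305 tags). Parn and Pan3 had no listed peak. Proteins that bind CCR4-NOT or bring it to messenger RNAs had promoter peaks at 5 of 29 genes (17.2%), with a median fold of 5.52. The highest were Zfp36l2, a gene for an AU-rich element binding protein (9.10), and Tnrc6a, a gene for a partner of Argonaute (7.97), followed by Tnrc6c (5.52) and Zfp36 (3.45). Cnot9, the subunit gene outside the 10, was on this list and had no listed peak under that name or as Rqcd1.

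Decapping and 5′-to-3′ decay had promoter peaks at 10 of 18 genes (55.6%), with a median fold of 7.185. Dcp2, which codes for the decapping enzyme, had a fold of 15.96 with 235 tags, and Lsm14b, which codes for a protein of messenger ribonucleoprotein granules, had 9.91. The Sm-like genes Lsm5 and Lsm4 had 8.46 and 8.2. Of the exosome and its helpers 5 of 15 genes (33.3%) had a promoter peak, with folds of 17.01 at Exosc2, a gene for an RNA-binding cap subunit, 8.04 at Dis3l and 7.60 at Dis3, both nuclease genes, and 6.14 at Skiv2l, a helicase gene. The Dis3 peak is shared with Pibf1 and the Skiv2l peak with Rdbp. Of 6 genes for poly(A)-binding proteins and their partners, Pabpc1 (6.47) and Pabpc4 (5.18) had promoter peaks. Beside these counts stands the 13.1% of all protein-coding genes, and differences between the lists were not tested. The counts take every listed promoter peak and include peaks with a false discovery rate as high as 8.52%.

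**Figure D4:**
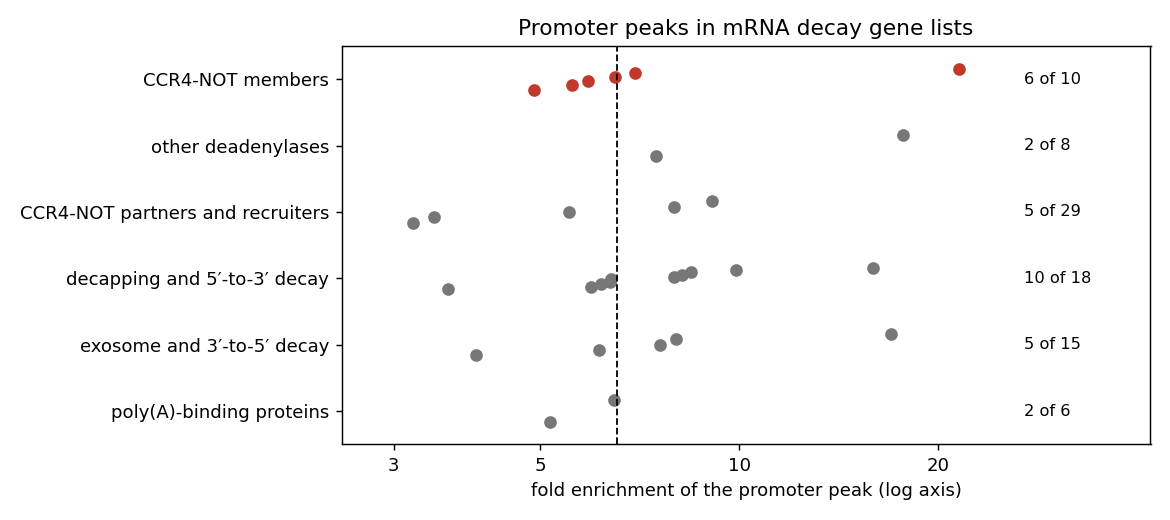
Fold enrichment (log axis) of the promoter peak of each gene with one, by list, with the number of such genes of the list at the right and a dashed line at the median of all protein-coding genes with a promoter peak (6.525). The members (red) have 1 gene, Cnot6 at 21.52, far above the line, and the highest gene of any other list is Toe1 at 17.74.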

How the data were processed

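The data are 1 list of E2F1 ChIP peaks called over input. Per the submitters' processing notes, Bowtie2 (2.1.0) and build mm9 (NCBIM37) were used. MACS was the peak caller, per the file headers. Its settings and any pooling of replicates were not stated in the sources. The deposited values, per the file headers, are the count of tags per called region, the pileup signal (height), the fold (a ratio of ChIP to expected background), a score from the p-value and a false discovery rate in percent.

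A peak counted as at a promoter when the window edge given by the authors (301 bp around the summit) was at most 850 bp from the TSS. Distances of downstream and 3′ untranslated entries were not used to call promoter peaks. TSS positions were derived from window, distance and strand. Of 5587 symbols, 5493 (98.3%) matched RefSeq genes of GRCm38.p6, used for names, gene order and the background of 21900 protein-coding genes. The motif search was tested on made-up sequences. Python 3.11.15 and pandas 2.3.3 were used. Named genes are all members, genes sharing their peaks and, per list, at most 4 genes by promoter fold; Parn, Pan3 and the neighbours were chosen after their values were seen. Members and lists were chosen with earlier results of these data known. No test was run, as each group has 1 sample. Alternatives varied promoter distance, peak threshold, gene assignment and motif. Protein sequences of paralogs were not compared.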

Additional observations from a re-analysis of the deposited data

How the results depend on the processing

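With promoters of 500 bp 4 members had a promoter peak (11.5% of all protein-coding genes), and with 2000 or 5000 bp 7 did, as Cnot6l was added (14.1% and 15.3%); the authors' own promoter class and the closest gene alone each gave 6. With a false discovery rate of at most 1%, 4 members had a promoter peak and 5 had any peak under their own symbol. The same counts held with the 2835 peaks of highest score. Of all protein-coding genes 8.01% and 11.7% did under the rate limit, and 9.35% and 14.4% with the score. These shares also count older symbols, by which Cnot11 too has a peak among those 2835 (score 103.8). Among the 1419 peaks of highest fold 1 member had a promoter peak, Cnot6, and 2 had any peak, Cnot6 and Cnot6l; of all protein-coding genes 5.49% and 7.53% did. Matching older symbols, an alternative added after the data were seen, gave 9 members with a peak instead of 8. The median fold of 6.19 became 6.48 with 2000 or 5000 bp, 6.715 with either threshold of rate or score, and 21.52 with the 1419 peaks, which leaves Cnot6 alone. With 7-letter motifs the share of all promoter windows holding one was 9.57% instead of 2.26%, and that of member windows 14.3% instead of 7.14%. No paired analysis was possible because each group has 1 sample and the list gives no values by replicate. How reads matching several places, such as close paralogs, were handled is unknown. Library depth is unknown, so no limit can be set for Cnot8.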

Other observations

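The genes next to the members on the reference (protein-coding, one on each side, order of GRCm38.p6) were looked up in the same list. Of 20 such neighbours 6 had a promoter peak, 2 had other peaks only and 12 had none. Of all protein-coding genes 13.1% had a promoter peak and 24.7% any listed peak. The 2 with other peaks only were Rnf149 and Vps37a, whose peak of highest fold is one also named for Cnot11 and Cnot7, respectively. Cnot3 had a promoter peak in both neighbours, Prpf31, a gene for a splicing factor (fold 5.11, 137 tags), and Leng1 (fold 4.83, 167 tags), with the neighbours' summits 14836 and 20805 bp from that of Cnot3. Nup205, a nuclear pore gene next to Cnot4, had a fold of 5.56 with its summit 43479 bp from that of Cnot4. Tbc1d8, next to Cnot11, had a fold of 6.12, Setd6, next to Cnot1, 4.73, and Cxcl13, a chemokine gene next to Cnot6l, 8.0. No promoter peak of a member was shared with a neighbour. Neither neighbour of Cnot6, Cnot2, Cnot10 or Cnot8 had a listed peak.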
